A study of Mus musculus with 4 samples.

Results

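The tumor suppressor p53 and 9 of its classical transcriptional targets were followed in tumor-associated macrophages (TAMs). The 10 genes (Trp53, Cdkn1a, Mdm2, Ccng1, Bax, Phlda3, Zmat3, Bbc3, Trp53inp1 and Sesn2) were taken by symbol as well-known genes of the pathway, by a rule that holds no measured value although earlier results of these data were known when it was made, and all 10 were found among the 16739 genes with a value in any library. RNA had been sequenced from CD45+CD11b+F4/80+ TAMs sorted by FACS from subcutaneous tumors of B16-F10, a mouse melanoma line of C57BL/6 origin. There were 2 libraries from WT mice and 2 from mice labelled Trim24-deficient, all of the C57BL/6 strain, 6 to 8 weeks old when the tumor cells were injected and killed 16 days later, and the labels do not say whether a library came from 1 mouse or from a pool. The deficient mice carried Trim24 flox/flox with LysM-Cre, which is active in macrophages, neutrophils and other myeloid cells, and the injected tumor cells carried no such deletion. The controls were WT littermates, and whether they carried a floxed allele or Cre was not stated.

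The p53 protein is a transcription factor that is kept scarce by ubiquitin ligases and accumulates after DNA damage and other stress. It then binds DNA as a tetramer and turns on genes that stop the cell cycle (Cdkn1a), start apoptosis (Bax, Bbc3) or feed back on p53 itself (Mdm2). Trim24, the gene targeted in these mice, is known as a ubiquitin ligase of p53, which gives the comparison its question, whether transcripts of p53 targets differ where Trim24 is missing from macrophages. RNA-seq measures the transcripts only, and p53 protein was not measured in these libraries.

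The consensus of the p53 response element, a pair of decamer half-sites with the core CNNG in the middle of each, was searched on both strands of the RefSeq promoter windows of GRCm38.p6, which run from 250 bases before to 50 bases after a transcription start. With at most 2 mismatches outside the cores and at most 13 bases between the half-sites, 4.09% of all 32851 windows held a match, and 0.33% held one with no spacer. Of the members, 8 had a window in the table, 11 windows in all, and 3 of these windows held a match, in Cdkn1a, Ccng1 and Bax. For each, the match with the shortest spacer is shown, because these are the promoter sequences of the set that resemble the site p53 binds, with the half-sites in capitals and 5 flanking bases on each side, read 5′ to 3′ on the strand of the gene.
Cdkn1a, chr17:29090923-29090952, plus strand: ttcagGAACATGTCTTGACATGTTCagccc
Ccng1, chr11:40755457-40755486, minus strand: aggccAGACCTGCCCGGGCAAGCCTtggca
Bax, chr7:45467074-45467104, minus strand: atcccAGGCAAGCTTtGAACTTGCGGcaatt
The Cdkn1a and Ccng1 matches had 1 mismatch and no spacer, and began 51 and 195 bases before the transcription start of their window. Cdkn1a has 2 windows, and its match lies in the upstream one, 29090729 to 29091028. The other, 29093519 to 29093818, held none. The Bax match had 2 mismatches and a spacer of 1 base, and began 201 bases before the start. In each of the 3 windows a further match with a longer spacer overlapped the one shown, and that of Cdkn1a had 0 mismatches with a spacer of 12 bases. A letter match describes the sequence and is not evidence of binding, and the windows of Trp53, Mdm2, Sesn2, Phlda3 and Bbc3 held none. The window is short, and a well-known p53 site of Mdm2, in its first intron, lies outside it. The Cdkn1a match shown lies upstream of the second Cdkn1a start, and the sequence between the 2 windows was not searched.

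The libraries held 4476122 to 5172407 expected counts. The targeted transcript, Trim24 (chromosome 6 of GRCm38, 37870811 to 37966296, plus strand), was at 5.86 and 2.08 normalised counts in WT replicates 1 and 2, against 3.41 and 0.411 where the label reads Trim24-deficient. Normalised counts (CPM) are expected counts scaled to a common library total with TMM, the factor of edgeR for differences in library composition. The groups overlapped (log2 fold change -1.06, SE 0.82, adjusted p = 0.635), and the value was -0.12 without WT replicate 1 and -3.19 without replicate 1 of the other group, so these libraries are called mutant-labelled throughout, by the submitters' label alone. All 5 sex-linked transcripts examined, Xist on the higher side and 4 Y-linked genes on the lower, were called between the groups, whereas the methods describe sex-matched mice, and for every gene given below genotype and sex cannot be told apart.

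Across the set, 0 of the 10 genes passed a fold change above 1.5 with an FDR below 0.05 (quasi-likelihood test of edgeR, adjusted after Benjamini and Hochberg over 11302 genes tested), against 0.372% of all genes tested, 0.292% called higher and 0.0796% called lower in the mutant-labelled TAMs. DESeq2 and limma also called 0 of the 10. At an unadjusted p under 0.05 the count was 3 by edgeR (Cdkn1a, Sesn2 and Zmat3), where 12.2% of all genes reached that p, 2 by DESeq2 (Cdkn1a and Sesn2; 5.45% of all genes) and 2 by limma on log2(FPKM + 1) (Phlda3 and Sesn2; 13.2%). Both mutant-labelled libraries lay outside the WT pair for 7 of the 10, 3 on the higher side (Cdkn1a, Bax and Sesn2) and 4 on the lower (Trp53, Bbc3, Phlda3 and Zmat3). Over all genes tested, 44.5% showed such a split, 21.4% on the higher and 23% on the lower side. The log2 fold changes of the 10 genes had a median of -0.07, with 4 above 0 and 6 below, and the median over all genes tested was -0.01. The members therefore did not share 1 direction, and the exact two-sided permutation test of FPKM gave p = 0.33 for each of the 7 split genes, the smallest p that 2 against 2 allows, and p = 1 for Ccng1, Mdm2 and Trp53inp1. In sorted bulk RNA, fewer cells that express a gene and less of its RNA per cell cannot be told apart.

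**Figure D1:**
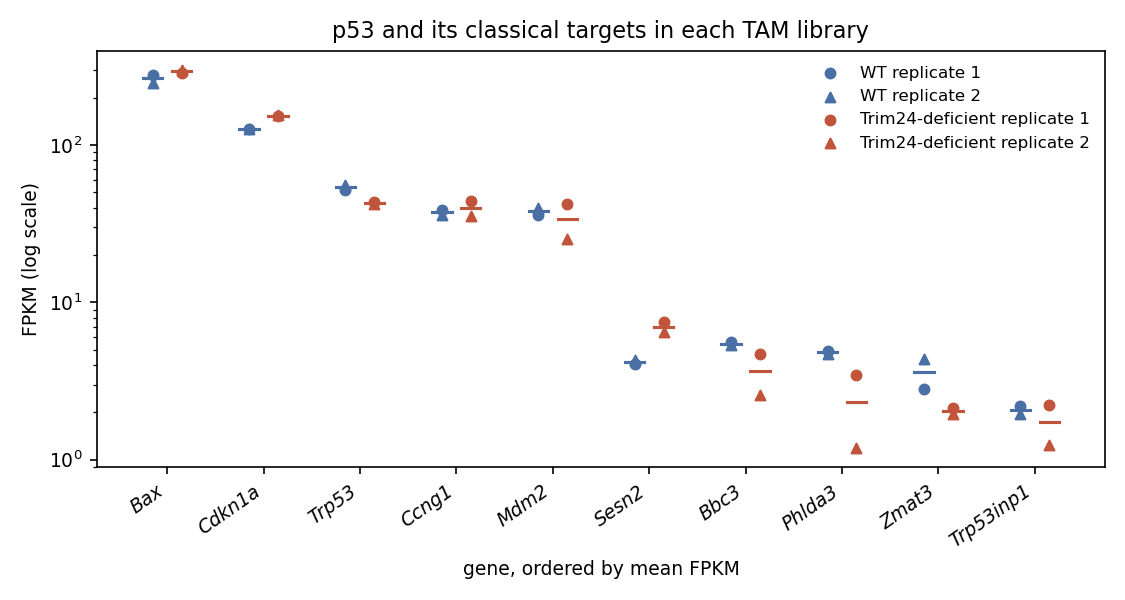
FPKM of p53 and 9 target genes on a log axis, with 1 point for each of the 4 TAM libraries and a bar at each group's mean. Bax and Cdkn1a stand above all other members in every library, and Cdkn1a and Sesn2 are higher in both mutant-labelled libraries. Replicate 2 of the mutant-labelled group is the lowest point of Trp53, Ccng1, Mdm2, Bbc3, Phlda3, Zmat3 and Trp53inp1.

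The levels of the 10 genes spanned more than 100-fold within a library in FPKM, which is scaled to transcript length and so allows genes to be compared. Bax was the most abundant, at the 98th percentile of all genes, followed by Cdkn1a at the 96th and Trp53 at the 88.8th, whereas Trp53inp1 was the least abundant, at the 41st. Bax exceeded Cdkn1a 2-fold, Cdkn1a exceeded Trp53 2.9-fold and Mdm2 exceeded Sesn2 6.41-fold in mean FPKM, each in all 4 libraries with ranges that did not overlap. The ranges of Trp53, Ccng1 and Mdm2 overlapped between neighbours, as did those of Sesn2, Bbc3, Phlda3, Zmat3 and Trp53inp1. Of these neighbours, only Bbc3 and Phlda3 kept their order, Bbc3 above, in all 4 libraries. The transcripts of p53 and of its main targets were therefore measured in these TAMs, whereas the family members Trp63 and Trp73 were not detectable at this depth, with 0 counts of Trp63 in every library and 1 count of Trp73 in 1 WT library.

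Trp53 encodes p53 itself (chromosome 11 of GRCm38, 69580359 to 69591873, plus strand, 11 exons). Its FPKM was 51.8 and 55.8 for WT replicates 1 and 2, against 43.6 and 42.1 for the mutant-labelled replicates 1 and 2. Both of the latter were below both WT libraries. In CPM the means were 91.6 ± 2.2 and 81.5 ± 0.74 (SD, n = 2 each), with a log2 fold change of -0.17 (SE 0.18, 95% interval -0.57 to 0.23, adjusted p = 0.744). The interval reaches from a 0.676-fold to a 1.17-fold level. On the FPKM scale, which has no TMM factor, the log2 difference was -0.33 with a pseudocount of 0.1, while the median of all genes stood at -0.15 on that scale.

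Mdm2 and Ccng1 are targets that act back on p53. Mdm2, the main ubiquitin ligase of p53 (chromosome 10, 117688875 to 117710758, minus strand, 12 exons), was at 35.7 and 40.1 FPKM in WT and at 42.1 and 25.4 FPKM in the mutant-labelled TAMs. The mutant pair enclosed the WT pair, and the mutant SD of 11.8 FPKM was well above the WT SD of 3.08 FPKM. Its log2 fold change was -0.02 (SE 0.24, adjusted p = 0.986), with a 95% interval from a 0.682-fold to a 1.43-fold level, and it ranged from -0.40 to 0.29 with single libraries left out, the lowest without mutant-labelled replicate 1 and the highest without mutant-labelled replicate 2. Ccng1 encodes cyclin G1, which recruits a phosphatase to Mdm2 (chromosome 11, 40748552 to 40755311, minus strand, 6 exons). It was at 38.6 and 36.0 FPKM in WT and at 44.3 and 35.2 FPKM in the mutant-labelled TAMs. These groups overlapped too, and the log2 fold change was 0.24 (SE 0.19, adjusted p = 0.657).

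Cdkn1a encodes p21, the inhibitor of cyclin-dependent kinases through which p53 halts the cell cycle (chromosome 17, 29090976 to 29100727, plus strand, 3 exons), and carries the first promoter match shown above. Its FPKM was 126 and 127 in WT and 153 and 154 in the mutant-labelled TAMs. The replicates of each group differed by far less than the groups, which did not overlap. CPM means were 231 ± 5.3 and 311 ± 5.3 (SD, n = 2 each), with a log2 fold change of 0.43 (SE 0.19, 95% interval 0.01 to 0.85, adjusted p = 0.405, unadjusted p = 0.046). The value stayed between 0.41 and 0.47 with each library left out in turn, and it was 0.28 on library totals without TMM. An annotated gene, AC167363.2, covers 273 of the 3553 exonic bases of Cdkn1a on the minus strand, and the counting was not stated to use strand, so its reads could not be told apart there.

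The apoptosis targets lay on both sides of 0. Bax, which permeabilises the outer mitochondrial membrane (chromosome 7, 45461697 to 45466898, minus strand, 6 exons), was at 280.35 and 249.9 FPKM in WT and at 289 and 302 FPKM in the mutant-labelled TAMs. Its groups did not overlap, but the gap between them was smaller than the distance between the WT replicates, and the log2 fold change was 0.30 (SE 0.19, adjusted p = 0.561). An annotated gene, Gm45808, covers 192 of its 1576 exonic bases.
Bbc3 encodes Puma, a BH3-only protein that releases Bax from inhibition (chromosome 7, 16308393 to 16318205, plus strand, 4 exons). Its FPKM was 5.56 and 5.36 in WT and 4.72 and 2.59 in the mutant-labelled TAMs. The groups did not overlap, with most of the distance in replicate 2 of the latter, and the log2 fold change of -0.45 (SE 0.38, adjusted p = 0.664) ranged from -0.95 to -0.08 with single libraries left out. Without that replicate it was -0.08.
Phlda3, a p53-induced inhibitor of Akt signaling (chromosome 1, 135766119 to 135769136, plus strand, 2 exons), was at 4.92 and 4.69 FPKM in WT and at 3.44 and 1.18 FPKM in the mutant-labelled TAMs. These values rest on 35, 31, 25 and 9 counts in the same order, the fewest of the 10 genes. The log2 fold change was -0.92 (SE 0.53, 95% interval -2.10 to 0.27, adjusted p = 0.512), and it was -0.34 without mutant-labelled replicate 2 and -1.85 without mutant-labelled replicate 1.
Trp53inp1, a nuclear protein that supports p53 phosphorylation and cell death (chromosome 4, 11156431 to 11174379, plus strand, 4 exons), was at 2.20 and 1.96 FPKM in WT and at 2.23 and 1.23 FPKM in the mutant-labelled TAMs. The mutant libraries again lay on both sides of the WT pair, with a log2 fold change of -0.12 (SE 0.36, adjusted p = 0.923) that ranged from -0.59 without mutant-labelled replicate 1 to 0.24 without mutant-labelled replicate 2.

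Sesn2 had the smallest p of the 10 genes. It encodes sestrin 2, a stress-induced inhibitor of mTORC1 that is also induced by ATF4 (chromosome 4, 132492032 to 132510501, minus strand, 10 exons). Its FPKM was 4.08 and 4.31 in WT and 7.54 and 6.45 in the mutant-labelled TAMs, so that the lowest mutant library was above both WT libraries. The WT values rest on 53 and 52 counts, so the small SD between them does not cover the counting error. CPM means were 10.8 ± 0.094 and 19.9 ± 2.0 (SD, n = 2 each), a 1.85-fold level with a 95% interval of 1.21-fold to 2.82-fold (log2 fold change 0.88, SE 0.27). The adjusted p was 0.23, with 465 genes ahead of it by p, and over all alternatives it ranged from 0.0681 to 0.999, the highest without WT replicate 2. The direction held with each library left out, from 0.78 to 0.98.
Zmat3, a zinc finger protein that binds RNA and regulates splicing (chromosome 3, 32334792 to 32366014, minus strand, 6 exons), pointed the other way. Its FPKM was 2.83 and 4.35 in WT and 2.12 and 1.94 in the mutant-labelled TAMs. The WT replicates differed from each other by more than the lower of them differed from the mutant libraries. The log2 fold change was -0.66 (SE 0.27, 95% interval -1.26 to -0.06, adjusted p = 0.363), and it was -0.35 without WT replicate 2.

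**Figure D2:**
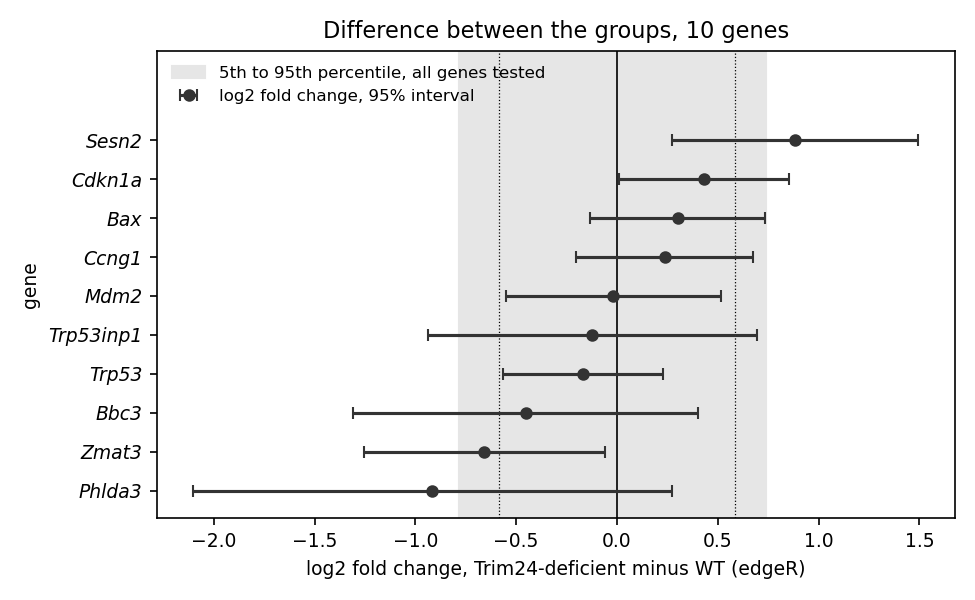
Log2 fold change of each of the 10 genes, mutant-labelled libraries minus WT, with its 95% interval from edgeR. The grey band spans the 5th to the 95th percentile of all genes tested and the dotted lines mark the 1.5-fold threshold; the intervals of Sesn2, Cdkn1a and Zmat3 leave out 0 before adjustment, and those of the other 7 genes include it.

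Ratios of FPKM within a library remove its scaling. Cdkn1a relative to Trp53 was 2.43 and 2.27 in WT and 3.51 and 3.66 in the mutant-labelled TAMs, and Sesn2 relative to Trp53 was 0.0787 and 0.0772 against 0.173 and 0.153. Bax relative to Trp53 was 5.41 and 4.48 against 6.62 and 7.16. These 3 ratios were higher in both mutant-labelled libraries. Each combines a higher numerator with a lower denominator, so its split was already set by the 2 genes and is no further result. Mdm2 relative to Trp53 was 0.69 and 0.718 against 0.966 and 0.604, which overlapped, and Bbc3 relative to Bax was 0.0198 and 0.0214 against 0.0163 and 0.00859. Phlda3 relative to Trp53 was 0.0949 and 0.084 against 0.0789 and 0.028, and Zmat3 relative to Trp53 was 0.0546 and 0.0779 against 0.0486 and 0.046. These last 3 ratios were lower in both mutant-labelled libraries, and the split of Bbc3 relative to Bax was likewise set by its genes. Of all single genes tested, 44.5% split in CPM, and the share for ratios was not computed. Mutant-labelled replicate 2 held the lowest CPM of 6 of the 10 genes, against 28.8% of all genes tested. Replicate 1 of that group held the lowest of 0 and the highest of 4, against 27.1% and 25.5% of all genes tested. The distance of Bbc3, Phlda3 and Trp53inp1 from WT lay mostly in that replicate 2, whereas Cdkn1a and Sesn2 stood above WT in both replicates.

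Fold changes varied with transcript length across all genes. Log2 fold change and length had a Spearman correlation of -0.249 over the 11302 genes tested, which share the same 4 libraries and are not independent, and the median log2 fold change went from 0.10 in the shortest of 10 length classes of equal size, with a median of 856 bases, to -0.22 in the longest, with a median of 7362 bases. Among the members, Bax is in the shortest class with 869 bases and Zmat3 in the longest with 7784 bases, and both stood on the side to which genes of their length leaned. With the length trend of each library taken out, an alternative chosen after this relation was seen, Bax was at 0.20 and Zmat3 at -0.41, and the unadjusted p of Zmat3 went from 0.034 to 0.115. Cdkn1a was at 0.37 (unadjusted p = 0.0648) and Sesn2 at 0.87 (unadjusted p = 0.00894) in that fit, and Trp53, at -0.24, stood farther from 0 than before. Mdm2 and Trp53inp1 came to 0.0008 and 0.0012, so that 6 of the 10 genes were above 0 in place of 4. None of the 10 was called in that fit either, with an adjusted p of 0.245 for Sesn2.

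**Figure D3:**
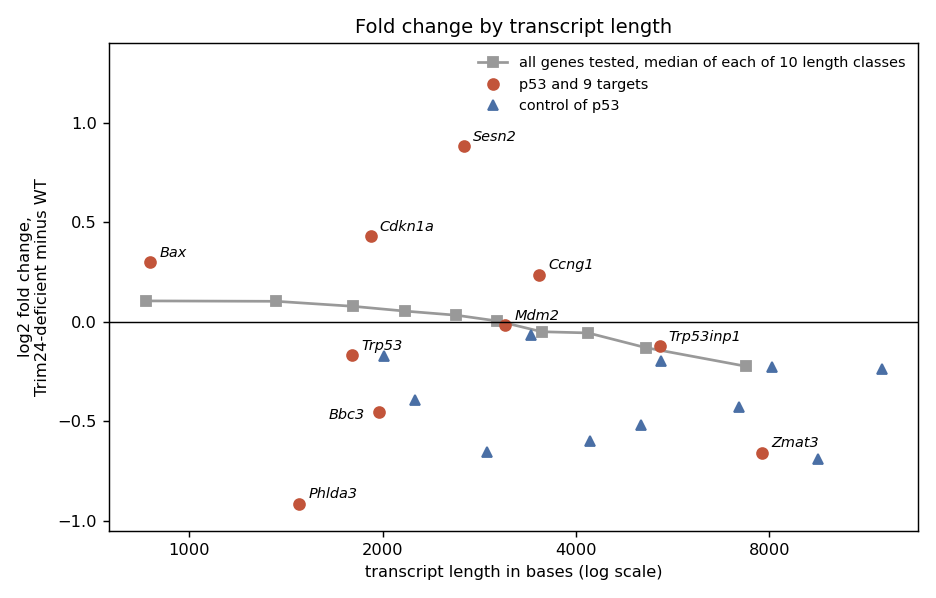
Log2 fold change against transcript length in bases (log axis) for p53 and its 9 targets (circles) and for 11 genes that control p53 (triangles), with the median of all genes tested in each of 10 length classes (grey squares). The grey line passes from 0.10 for the shortest to -0.22 for the longest genes, Phlda3, Sesn2, Bbc3, Zmat3 and Cdkn1a lie farthest from it among the circles, and Mdm2 and Trp53inp1 lie on it.

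Beyond the 10 genes, 53 further genes of the pathway were grouped by role, of which 45 passed the filter on low counts. None of the 45 was called, 5 had an unadjusted p under 0.05 (Trp53bp1, Plk2, Gtse1, Fas and Ak1) where 12.2% of all genes did, 20 had a log2 fold change above 0 and 25 below, and the median was -0.07. Both mutant libraries were above the WT pair for 11 genes and below it for 11, against 21.4% and 23% of all genes, and the other 23 overlapped. On library totals without TMM, where the median of all genes was -0.15, the split was 14 above 0 and 31 below, so the direction of the small values follows the scaling.
The genes that control p53 had the lowest median of the pathway groups. All 11 tested had a log2 fold change below 0 under each of the scalings tried, from -0.69 to -0.07 with a median of -0.40 in TMM-scaled counts, while 49.4% of all genes were above 0. Both mutant libraries were below the WT pair for 6 of the 11, against 23% of all genes. The group joins inhibitors of p53, such as Mdm4 and Rchy1, with damage-response genes such as Trp53bp1. A direction that they share therefore gives no direction of p53 activity. Of the 11, 4 fall in the longest length class and 2 in the next, and with the length trend removed 9 of 11 were below 0, with a median of -0.23. Trp53bp1, which encodes the damage-response protein 53BP1, was at 48.5 and 57.1 CPM in WT and at 30.7 and 34.7 CPM in the mutant-labelled TAMs (log2 fold change -0.69, SE 0.21, adjusted p = 0.221). It was at -0.40 with an unadjusted p of 0.0812 once length was taken out. Mdm4, the partner of Mdm2 that masks p53, was at 48.9 and 75.2 against 50.3 and 41.9 CPM, which overlapped. Rchy1, a further ubiquitin ligase of p53 and the most abundant of the group by FPKM, showed a log2 fold change of -0.17 with length left in (adjusted p = 0.769).
Further cell-cycle targets went both ways. Plk2, a kinase induced by p53, was at 124 and 68.5 CPM in WT and at 161 and 173 CPM in the mutant-labelled TAMs (log2 fold change 0.80, SE 0.26, adjusted p = 0.266), and the value was 0.43 without WT replicate 2 and 1.3 without WT replicate 1. Gtse1, which carries p53 out of the nucleus in G2, was at 26.0 and 20.4 against 12.8 and 13.8 CPM (log2 fold change -0.81, SE 0.26, adjusted p = 0.263). Neither pair of groups overlapped, and the 7 genes tested in this group had a median of 0.10.
Of 9 apoptosis targets tested, 6 were above 0 and 3 below, with a median of 0.15, which was 0.005 on library totals. Fas, the death receptor, was at 11.5 and 8.33 CPM in WT and at 17.9 and 21.2 CPM in the mutant-labelled TAMs, a 1.96-fold level with a 95% interval of 1.24-fold to 3.12-fold (adjusted p = 0.225). Tnfrsf10b, the receptor of TRAIL, was at 43.6 and 69.2 against 49.8 and 29.2 CPM with overlapping groups, and Siva1 was at 0.15.
Metabolic targets had a median of -0.11 over 7 genes. Gpx1, which reduces hydrogen peroxide, was the most abundant at 578 and 678 against 720 and 833 CPM (log2 fold change 0.30, adjusted p = 0.594). Ak1, adenylate kinase, was at 3.84 and 4.38 against 1.06 and 1.85 CPM (log2 fold change -1.47, SE 0.57, adjusted p = 0.34), and Prkab1, a subunit of AMPK, had a log2 fold change of 0.45. Among 6 repair targets Pcna, the clamp of replicating DNA polymerase, was at 244 and 209 against 181 and 181 CPM (log2 fold change -0.32, adjusted p = 0.528) and Ercc5 was at 0.30. The 5 other targets tested stayed between -0.13 and 0.16, with Plxnb2 lowest, Abhd4 highest and Rps27l at 0.15. Cdkn2a, whose product p19Arf restrains Mdm2, and Rprm had 0 counts in every library, where 3 counts would be 0.58 to 0.67 CPM.

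**Figure D4:**
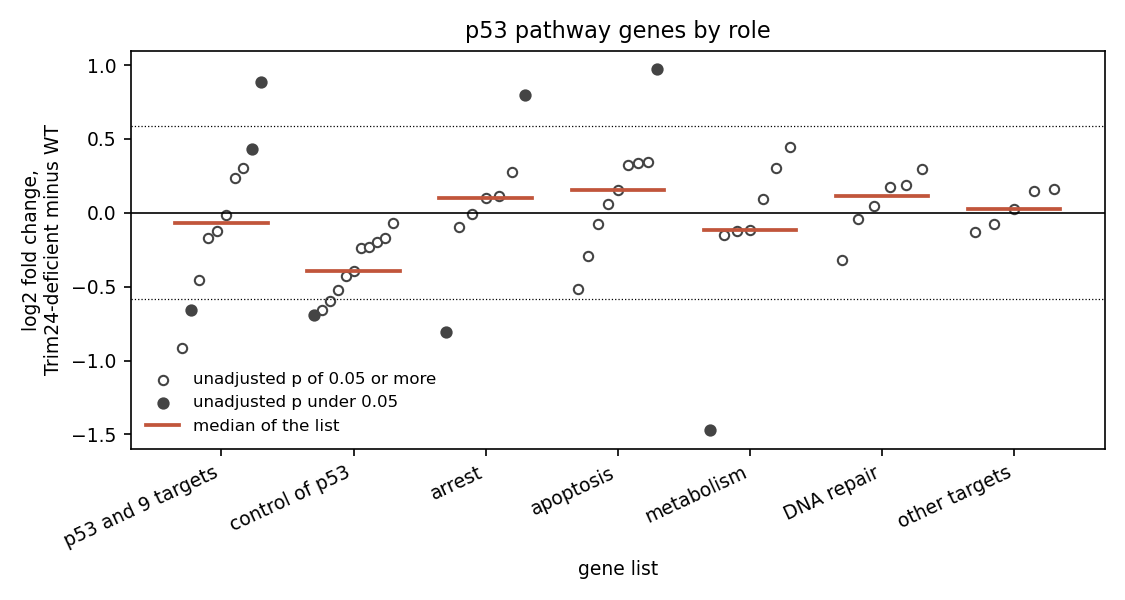
Log2 fold change of p53 and its 9 targets and of further pathway genes, grouped by role; each circle is 1 gene that passed the filter, filled where the unadjusted p was under 0.05, the bar is the group's median and the dotted lines mark a fold change of 1.5. All 11 genes that control p53 lie below 0, and the other groups lie on both sides of it.

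Through p21 and the DREAM complex, p53 represses cell-cycle genes, and 10 such genes were read beside Cdkn1a. Their summed level was 1307 and 1363 CPM in WT and 889 and 1096 CPM in the mutant-labelled TAMs. The sums did not overlap, and 8 of the 10 were below 0 (10 of 10 on library totals) with a median of -0.52. Both mutant libraries were below the WT pair for 7, against 23% of all genes. With the length trend removed, 10 of 10 were below 0, with a median of -0.43. In that fit the long genes Cenpf and Top2a went from -0.55 to -0.23 and from -0.80 to -0.67. Birc5, in the shortest class, went from -0.24 to -0.34. Only Mki67 was called, 1 of 10 where 0.372% of all genes were called. It is named here after its values were seen. Mki67, the proliferation marker Ki-67, was at 142 and 181 against 71.6 and 71.1 CPM (log2 fold change -1.18, adjusted p = 0.0453 by edgeR). It was below 0 under every alternative, from -1.33 to -0.88. It was also called by DESeq2 (adjusted p = 0.000746), on library totals (0.0408) and without either mutant-labelled library (0.00171 without replicate 1 and 0.00106 without replicate 2). It was not called without either WT library (0.0553 without replicate 1 and 0.42 without replicate 2), with upper-quartile scaling (0.0507), with limma (0.146 and 0.157 at pseudocounts of 1 and 0.1) or with the length trend removed (0.111). Where a library was left out, its group was down to 1, which is assumed to vary like the other group.
Markers of other cells were read in the same libraries. None that passed the filter on low counts was called, and many did not pass it and were not tested. The filter left 8 of 8 melanoma, 4 of 8 neutrophil and 6 of 8 T and NK cell genes. It left 1 of 4 B cell, 4 of 5 dendritic cell and 2 of 7 fibroblast and endothelial genes, and it removed Ly6g. The 8 melanoma genes, which cells of the B16 line express, were above 0 in every library and had both mutant libraries below the WT pair for 5 of 8, against 23% of all genes, with summed levels of 829 and 792 CPM in WT and 619 and 816 CPM in the mutant-labelled TAMs. Melanoma cells also transcribe p53 targets and cell-cycle genes, and their part in the values above was not tested. The 8 neutrophil genes summed to 177 and 206 CPM in WT and to 271 and 410 CPM in the mutant-labelled TAMs, with Ly6g at 0 in WT and at 1.92 and 0.822 CPM otherwise, and Camp and Ngp at 1 to 3 counts where found. Within that list Cxcr2 stood on the other side, at 63.6 and 84.0 against 42.8 and 76.8 CPM with overlapping groups, whereas S100a8, S100a9 and Csf3r were higher in both mutant-labelled libraries. Macrophage markers dominated all libraries, with sums of 16610 to 20280 CPM. T and NK cell genes summed to 117 and 67.3 against 228 and 50.1 CPM, B cell genes to 55.3 and 46.3 against 55.4 and 51.6, dendritic cell genes to 44.4 and 32.5 against 75.2 and 33.1, and fibroblast and endothelial genes to 21.8 and 22.5 against 45.8 and 32.5.
Genes induced by tissue dissociation were on both sides, with 5 of 10 above 0 and sums of 1459 and 991 against 1237 and 1198 CPM. The sums overlapped, but single genes differed. By edgeR 5 of the 10 had an unadjusted p under 0.05, against 12.2% of all genes, and none was called. Fos, Fosb, Egr1 and Hspa1b were lower in both mutant-labelled libraries (log2 fold changes -0.79, -2.03, -0.498 and -0.84). Hspa1a (0.55) and Junb (0.33) were higher in both, and the other 4 genes overlapped. The part of the other cell types and of handling in the p53 results was not tested.

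**Figure D5:**
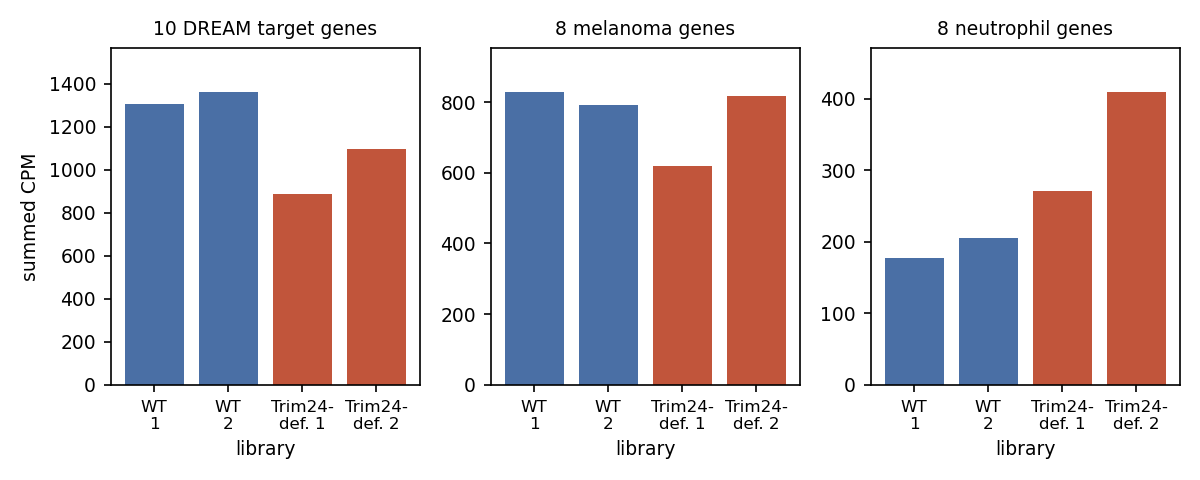
Summed CPM of 10 DREAM target genes, 8 melanoma genes and 8 neutrophil genes in each library, with 1 bar per library and no error bar since each bar is 1 measurement. The DREAM sums of both mutant-labelled libraries, 889 and 1096, are below those of both WT libraries, 1307 and 1363, and the neutrophil sums are above.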

How the data were processed

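The authors aligned reads with Bowtie to GRCm38/mm10, estimated gene levels with RSEM (versions not given in the sources used here) and deposited for each library an expected count per gene, which is not normalised, an FPKM value and a transcript length. Of the deposited expected counts, 76.6% to 77.7% were whole numbers as written to 2 decimals, and all were rounded. Symbols were matched by Entrez identifier for 16698 of 16739 genes.

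edgeR 4.0.16 in R 4.3.3 filtered genes (filterByExpr), scaled libraries by TMM and tested the label with glmQLFit and glmQLFTest. Standard errors are the log2 fold change divided by the square root of F. Every adjusted p is from this test unless another tool is named. The labels do not say that samples of a group are separate mice, so p-values measure only the spread between these samples, which may be technical. CPM are counts scaled to a common, TMM-adjusted library total. The floor of 3 counts covers counting error only. The members and gene lists were chosen with earlier results of these data known. Besides the members and Trim24, genes were named if they had the highest FPKM, the largest change in either direction or an unadjusted p under 0.05 within a pathway list. Mdm4, genes at or near 0 counts and markers of other lists were named outside this rule, after their values were seen.

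Alternatives were the replicate block, DESeq2 1.42.0, limma 3.58.1 on log2 FPKM with a pseudocount of 1 or 0.1 (genes reaching 1 FPKM in 2 or more libraries), other scalings and filters, and each library left out. Removal of each library's length trend (lowess, span 0.3) was chosen after seeing the data. On simulated data with 200 genes changed 4-fold, edgeR recovered 91.5% with 7 false calls among 11099 genes tested. The simulated spread followed the fitted trend only, without a spread of each gene's own. The members' log2 fold changes, from -0.92 to 0.88, were smaller than 4-fold, so this recovery does not apply to them. Positions are from GENCODE M21 and promoter sequences from RefSeq (GRCm38.p6), which had no entry for Zmat3 or Trp53inp1.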

Additional observations from a re-analysis of the deposited data

Results flagged for a closer look

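Trp53 drew notice in the deposited transcript length, which enters the FPKM values and was used above to order genes, but was not itself compared between the groups. RSEM averages this length over a gene's transcripts by their estimated abundance, so it moves when the mix of transcripts moves. For Trp53 it was 1785.33 and 1789.22 bases in the WT libraries and 1794.71 and 1805.62 bases in the mutant-labelled libraries. The difference of means was 12.89 bases with no overlap. The gap between the groups was smaller than the distance between the mutant-labelled replicates, of which replicate 2 lay farther from WT. The 2 RefSeq transcripts quantified for Trp53 have 1771 and 1867 bases in GENCODE, and the longer equals the shorter with 1 insertion of 96 bases after base 1249. Under the assumption that the authors' transcripts differ by the same 96 bases, the difference is 13.4 percentage points of the longer transcript, and it was not tested. Among 3101 tested genes whose averaged length varied by more than 1 base, 14.6% were longer and 15.6% shorter in both mutant-labelled libraries, so a split of this kind is common. Of the other members, Mdm2, Cdkn1a and Trp53inp1 varied by over 1 base with overlapping groups.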

How the results depend on the processing

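None of the 10 members was called under any of the 13 alternatives, and Phlda3 was not tested with at least 10 counts in every library. Of the members' log2 fold changes under alternatives, 123 kept their direction and 6 changed sign, all of Mdm2 and Trp53inp1 and none called. With single libraries left out, Mdm2 ranged from -0.4013 to 0.291 and Trp53inp1 from -0.5879 to 0.2357. With the length trend removed they were 0.0008 and 0.0012. Outside the members, Plxnb2 ranged from -0.254 to 0.0193 with single libraries left out and was 0.0612 with the length trend removed. Over all genes, 42 were called (78.6% higher), 163 with DESeq2, 23 with limma on log2(FPKM + 1) (60.9% higher), 20 on log2(FPKM + 0.1) (55% higher), 35 with at least 10 counts (88.6% higher), and 25 to 652 with single libraries left out, the highest count without mutant-labelled replicate 2. No filter gave 62, library totals and upper-quartile scaling 30 each, and the length correction 38. The cause of these shifts was not tested. With single libraries left out, 0 to 2 of the further pathway genes were called, 2 without mutant-labelled replicate 1 (Plk2 and Tnfrsf10b).

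Replicate numbers 1 and 2 occur in both groups, but nothing ties same-numbered libraries, and their deviations from the group means correlated at 0.165 across genes. With the replicate number as a block, 634 of 11302 genes were called (425 higher, 209 lower, 42 shared with the fit without it). Of the 45 further pathway genes tested, 3 were called in the block fit, Trp53bp1, Plk2 and Fas. That fit has 1 residual degree of freedom and takes its spread from all genes, not from each gene. Sesn2 had its lowest adjusted p there, 0.0681, against 0.23 in the fit without the block.

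With 2 libraries per group the intervals of the members span from 0.233-fold to 2.82-fold levels, and Phlda3, Trp53inp1, Bbc3 and Sesn2 rest on few counts, so small differences were not detectable at this depth.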
